A study of Mus musculus with 24 samples.

Results

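The genes described here encode the regulators that act on the cap-binding protein eIF4E and on the poly(A)-binding protein, at the 2 ends of an mRNA. They were chosen by name: the 4E-binding proteins Eif4ebp1 and Eif4ebp2, the eIF4E transporter Eif4enif1, the MNK kinases Mknk1 and Mknk2, the helicase inhibitor Pdcd4, the mRNA-binding protein Larp1, the poly(A)-binding protein Pabpc1 and its partners Paip1 and Paip2. These are 10 of the 19661 genes measured. They were represented by 12 probe sets, with 2 probe sets each for Eif4enif1 and Larp1, and 10 of 10 genes passed the filter on low values.

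As background, eIF4E binds the cap at the start of an mRNA and recruits the scaffold eIF4G, which carries the helicase eIF4A and also binds the poly(A)-binding protein on the tail. The 4E-binding proteins occupy the eIF4G site of eIF4E until the kinase complex mTORC1 phosphorylates them, and the MNK kinases, which act downstream of ERK and p38, dock on eIF4G and phosphorylate eIF4E. PDCD4 blocks eIF4A, LARP1 binds the cap and start of ribosomal protein mRNAs downstream of mTORC1, and PAIP1 and PAIP2 respectively promote and oppose the work of the poly(A)-binding protein. Ras and Myc, the transforming agents of this study, are known to act on this machinery, Ras through the ERK and mTORC1 routes and Myc as a transcription factor.

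The cultures were early-passage primary embryonic fibroblasts (MEFs, from E13.5) of 6 mouse embryos, 3 wild type (WT) and 3 Eif4e+/- (heterozygous, here Het). Each embryo gave an untransformed culture and a culture transformed by Ras and Myc. All 12 cultures were kept in DMEM with 10% serum and collected while growing exponentially. RNA on heavy polysomes, the fraction with many ribosomes per mRNA, came from extracts of cycloheximide-treated cells (100 µg/ml) on 10 to 50% sucrose gradients. Each of the 24 Affymetrix arrays held total or polysomal RNA of 1 culture, so the 8 groups of genotype, state and fraction had 3 arrays each. The labels name neither the vectors nor the number of transformed clones, and each transformed culture is matched to the untransformed culture of its own embryo.

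Values are log2 RMA intensities, a summary of all probes of a gene, and can be compared between arrays of a fraction but not between genes. Translational efficiency (TE) is the polysomal value less the total value. Total RNA arrays had means of 7.46 to 7.50 and polysomal arrays of 3.78 to 3.79, so each fraction has its own common level and only differences in TE can be read. Polysomal arrays resembled each other less (median correlation 0.9 to 0.942) than total RNA arrays (0.96 to 0.977). Those lowest in this measure were WT untransformed 1 (0.9) and WT transformed 3 (0.923), which also had the narrowest spreads of values over genes (SD 1.15 and 1.25, against up to 1.44). Transformation differences on polysomes are therefore also given without these 2 arrays, where they moved. Het transformed 3 was nearly as low (0.924, with an SD of 1.37) and was kept. It held the highest polysomal values of Paip1 (5.38) and Paip2 (8.45). Eif4e, the targeted gene, was 9.21, 9.05 and 9.03 in total RNA of untransformed WT cultures against 8.69, 8.88 and 8.83 in Het, and 9.80, 9.67 and 9.40 against 9.10, 8.84 and 9.21 after transformation. Het cultures lay below WT cultures in both states (exact two-sided permutation p = 0.1, the lowest value that this design allows). All 10 listed fibroblast markers were measured, and their mean in total RNA was 10.02 to 10.34 in untransformed and 8.32 to 9.90 in transformed WT cultures, and 10.06 to 10.24 and 8.85 to 10.11 in Het cultures. The mean of 5 epithelial markers was 7.23 to 7.40 and 7.39 to 8.19 in WT and 7.26 to 7.43 and 7.85 to 7.95 in Het cultures, in the same order. The mean of 6 leukocyte markers was 7.24 to 7.36 and 6.65 to 7.07 in WT and 7.11 to 7.42 and 6.55 to 6.79 in Het cultures, and that of 6 endothelial markers 6.76 to 6.95 and 6.35 to 6.60 in WT and 6.61 to 6.77 and 6.30 to 6.36 in Het cultures. The mean of 5 muscle markers was 6.81 to 6.91 and 6.62 to 6.76 in WT cultures and overlapped between states in Het, and that of 5 neural markers overlapped in both genotypes. Overlap of a list mean does not show that its markers were stable. Over all cultures, total RNA of the neural markers Sox2 and Tubb3 ran from 6.47 to 10.01 and 7.56 to 10.68, and Gfap from 6.69 to 6.93. Among epithelial markers Krt18 ran from 8 to 10.89, Krt8 from 8.43 to 9.75, and Epcam from 6.05 to 6.66. Among fibroblast markers Thy1 ran from 7.2 to 12.22, Lum from 4.74 to 9.42, Dcn from 6.18 to 10.08 and Pdgfra from 7.2 to 10.48. The fibroblast markers Vim and Fn1 had narrower ranges, of 12.41 to 12.61 and 12.42 to 13.21. The leukocyte marker Cd68 ran from 8.33 to 11.27, and Itgam from 5.91 to 6.65. The part of these marker shifts in the transformation results below was not tested.

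Promoter windows of 250 bases upstream of annotated starts (RefSeq, GRCm38.p6) matched 7 of the 10 genes. Eif4ebp1, Pabpc1 and Paip2 had no entry. Each was searched for CACGTG, the E-box that MYC is known to bind, which reads the same on both strands. The motif was in 6.02% of all 32851 windows of this length, or in a window of 6.86% of 27025 genes, and in 1 of the 7 matched genes, Mknk1, in both of its 2 overlapping windows. Both windows of Pdcd4, the gene of the 10 with the largest change in total RNA, and the first of Mknk1 are shown in lower case, with the motif in capitals where present.
Pdcd4, chr19:53891981-53892230, plus strand: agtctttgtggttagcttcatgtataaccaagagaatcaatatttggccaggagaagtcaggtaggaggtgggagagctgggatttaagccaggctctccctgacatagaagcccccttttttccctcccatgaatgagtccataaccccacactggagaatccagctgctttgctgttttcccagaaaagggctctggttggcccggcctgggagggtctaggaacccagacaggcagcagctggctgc
Pdcd4, chr19:53903101-53903350, plus strand: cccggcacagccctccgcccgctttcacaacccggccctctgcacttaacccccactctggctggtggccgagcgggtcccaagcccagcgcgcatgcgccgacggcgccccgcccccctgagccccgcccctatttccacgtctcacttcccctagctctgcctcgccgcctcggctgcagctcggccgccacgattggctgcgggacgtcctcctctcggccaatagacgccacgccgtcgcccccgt
Mknk1, chr4:115838948-115839197, plus strand: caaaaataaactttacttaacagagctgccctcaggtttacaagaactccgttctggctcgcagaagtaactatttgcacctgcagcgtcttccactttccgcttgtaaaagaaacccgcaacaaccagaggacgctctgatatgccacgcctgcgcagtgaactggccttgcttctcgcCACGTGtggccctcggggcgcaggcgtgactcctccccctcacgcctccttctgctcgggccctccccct
Neither Pdcd4 window held these letters, and the windows differed in base composition, with 52.8% and 72.4% G or C. In Mknk1, whose windows hold the motif, total RNA did not pass the test in any comparison. Sequence outside these windows and other forms of the motif were not searched. Whether MYC acts on any of these genes was not tested.

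Transformation was accompanied by more Pdcd4 and Paip2 mRNA in both genotypes and by more Pabpc1 mRNA in WT cells. In total RNA of WT cultures 3 of the 10 genes were called higher and 0 lower, where 7.62% of all 14830 genes tested were called higher and 9.08% lower, 16.7% together (limma, Benjamini-Hochberg adjusted p under 0.05). In Het cultures 2 were called higher, Pdcd4 and Paip2, and 0 lower, where 5.68% of all genes were called higher and 8.58% lower, 14.3% together. The median difference over the 10 genes was 0.12 in WT and 0.04 in Het cultures, beside 0 and 0.04 over all genes. Both states of an embryo were compared with each other in this fit, and these bulk values cannot tell a change in the share of expressing cells from a change in RNA per cell. The share of all genes called is sensitive to single embryos: 2476 genes were called in WT but 952 without WT embryo 1 and 1158 without WT embryo 2, and 2115 in Het but 562, 1325 and 326 without Het embryo 1, 2 or 3.

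**Figure D1:**
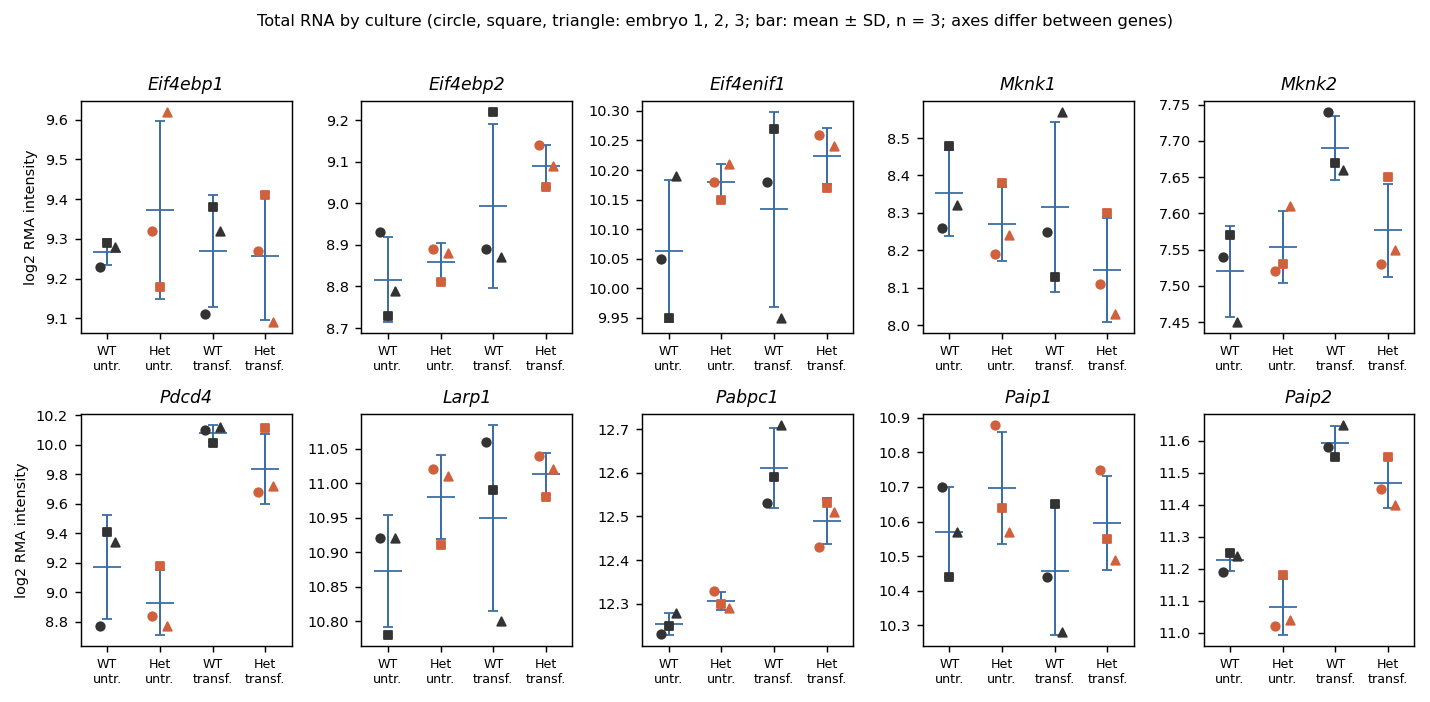
Total RNA of the 10 genes in each culture, as log2 RMA intensity on the vertical axis with its own range per gene; circle, square and triangle are embryos 1, 2 and 3 of WT (dark) and Het (orange), and bars give the mean and SD of 3 cultures. The transformed cultures of Pdcd4, Pabpc1 and Paip2 lie above the untransformed cultures in both genotypes, while the groups of Eif4ebp1, Mknk1 and Paip1 overlap.

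The 4E-binding proteins changed little in total RNA. Eif4ebp1, the main mTORC1-controlled inhibitor, was 9.23, 9.29 and 9.28 in untransformed WT embryos 1 to 3 and 9.11, 9.38 and 9.32 after transformation. In Het embryos it was 9.32, 9.18 and 9.62 before and 9.27, 9.41 and 9.09 after. These groups overlap, with differences of 0.00 (95% interval -0.33 to 0.33) in WT and -0.12 (-0.45 to 0.21) in Het cultures. Eif4ebp2, its close relative, was 8.93, 8.73 and 8.79 in untransformed and 8.89, 9.22 and 8.87 in transformed WT cultures. In Het cultures it was 8.89, 8.81 and 8.88 against 9.14, 9.04 and 9.09, so that here each transformed culture lay above each untransformed one. The Het difference of 0.23 ± 0.11 (SE) did not pass the test (adjusted p = 0.189, limma).

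Eif4enif1 encodes 4E-T, which carries eIF4E into the nucleus and into P-bodies, the sites of stored and decaying mRNA. Its total RNA was 10.05, 9.95 and 10.19 in untransformed WT, 10.18, 10.27 and 9.95 in transformed WT, 10.18, 10.15 and 10.21 in untransformed Het and 10.26, 10.17 and 10.24 in transformed Het cultures. All 4 groups overlap, and the transformation differences were 0.07 (95% interval -0.19 to 0.33) in WT and 0.04 (-0.22 to 0.30) in Het cultures. Its other probe set (10407568) gave differences of 0.10 and -0.05.

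The MNK kinases also gave no call. Mknk1 was 8.26, 8.48 and 8.32 in untransformed and 8.25, 8.13 and 8.57 in transformed WT cultures, and 8.19, 8.38 and 8.24 against 8.11, 8.30 and 8.03 in Het cultures, with overlap in both. Mknk2, whose product is active with less upstream signal than that of Mknk1, was 7.54, 7.57 and 7.45 in untransformed and 7.74, 7.67 and 7.66 in transformed WT cultures. These WT groups do not overlap, and the difference of 0.17 ± 0.07 (SE) missed the threshold (adjusted p = 0.152, limma). In Het cultures Mknk2 was 7.52, 7.53 and 7.61 against 7.53, 7.65 and 7.55, a difference of 0.02 (95% interval -0.15 to 0.19). The difference between these genotype-specific changes was -0.15 (-0.39 to 0.09), which also did not pass (adjusted p = 0.916, limma).

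Pdcd4, the tumour suppressor that inhibits eIF4A and is itself degraded after phosphorylation by S6 kinase, had the largest change. It was 8.77, 9.41 and 9.34 in untransformed WT and 8.84, 9.18 and 8.77 in untransformed Het cultures. After transformation it was 10.10, 10.01 and 10.12 in WT and 9.68, 10.11 and 9.72 in Het cultures. Each transformed culture lay above all 6 untransformed cultures. The rise in the single embryos was 1.33, 0.60 and 0.78 in WT and 0.85, 0.92 and 0.95 in Het. On average it rose by 0.91 ± 0.14 (SE) in WT cultures, a fold of 1.87 with a 95% interval of 1.5 to 2.34 (adjusted p = 0.00748, limma). In Het cultures the rise was 0.91 ± 0.14 as well (adjusted p = 0.00889, limma), and the difference between the genotypes was 0.00 (95% interval -0.45 to 0.46). The WT call held without any single embryo. The Het call was lost without Het embryo 1 (0.94, adjusted p = 0.0544, limma) and without Het embryo 3 (0.89, adjusted p = 0.0726, limma).

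Larp1 changed little in total RNA. It was 10.92, 10.78 and 10.92 in untransformed and 11.06, 10.99 and 10.80 in transformed WT cultures, and 11.02, 10.91 and 11.01 against 11.04, 10.98 and 11.02 in Het cultures. The groups overlap, and the differences were 0.08 (95% interval -0.12 to 0.28) and 0.03 (-0.17 to 0.23). The other Larp1 probe set (10376312) gave -0.08 and 0.08.

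Pabpc1, which coats the poly(A) tail, and Paip2, which displaces it, both rose in WT cultures. Pabpc1 was 12.23, 12.25 and 12.28 in untransformed WT and 12.53, 12.59 and 12.71 in transformed WT cultures. In Het cultures it was 12.33, 12.30 and 12.29 before and 12.43, 12.53 and 12.51 after transformation. The states do not overlap in either genotype. The rise was 0.36 ± 0.07 (SE) in WT, a fold of 1.28 (adjusted p = 0.0175, limma), and the Het difference of 0.18 ± 0.07 did not pass (adjusted p = 0.13, limma). The test of the difference between them gave -0.18 (95% interval -0.41 to 0.06) and did not pass (adjusted p = 0.916, limma), so the rise is not shown to be smaller in Het cells. Leaving out WT embryo 1, 2 or 3 ended the WT call each time (adjusted p = 0.069, 0.068 and 0.0589, limma), at differences of 0.39, 0.37 and 0.32. Pabpc1 has near-identical copies in the mouse genome, whose transcripts may share its probes, and its value is uncertain to that extent.

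Paip2 was 11.19, 11.25 and 11.24 in untransformed and 11.58, 11.55 and 11.65 in transformed WT cultures. In Het cultures it was 11.02, 11.18 and 11.04 before and 11.45, 11.55 and 11.40 after. Each transformed culture lay above all 6 untransformed cultures, and the embryos rose by 0.30 to 0.43. The mean rise was 0.36 ± 0.07 (SE) in WT (adjusted p = 0.0142, limma) and 0.39 ± 0.07 in Het cultures (adjusted p = 0.0136, limma), folds of 1.28 and 1.31. Leaving out embryo WT1 ended the WT call (0.35, adjusted p = 0.0775, limma), and the Het call was lost without Het embryo 1 (0.36, adjusted p = 0.091) or 3 (0.40, adjusted p = 0.0845, limma). Paip1, which binds both the poly(A)-binding protein and eIF4A, did not share this pattern. Its total RNA was 10.70, 10.44 and 10.57 in untransformed and 10.44, 10.65 and 10.28 in transformed WT cultures, and 10.88, 10.64 and 10.57 against 10.75, 10.55 and 10.49 in Het cultures. The groups overlap, and the differences were -0.11 (95% interval -0.37 to 0.14) and -0.10 (-0.36 to 0.15).

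**Figure D2:**
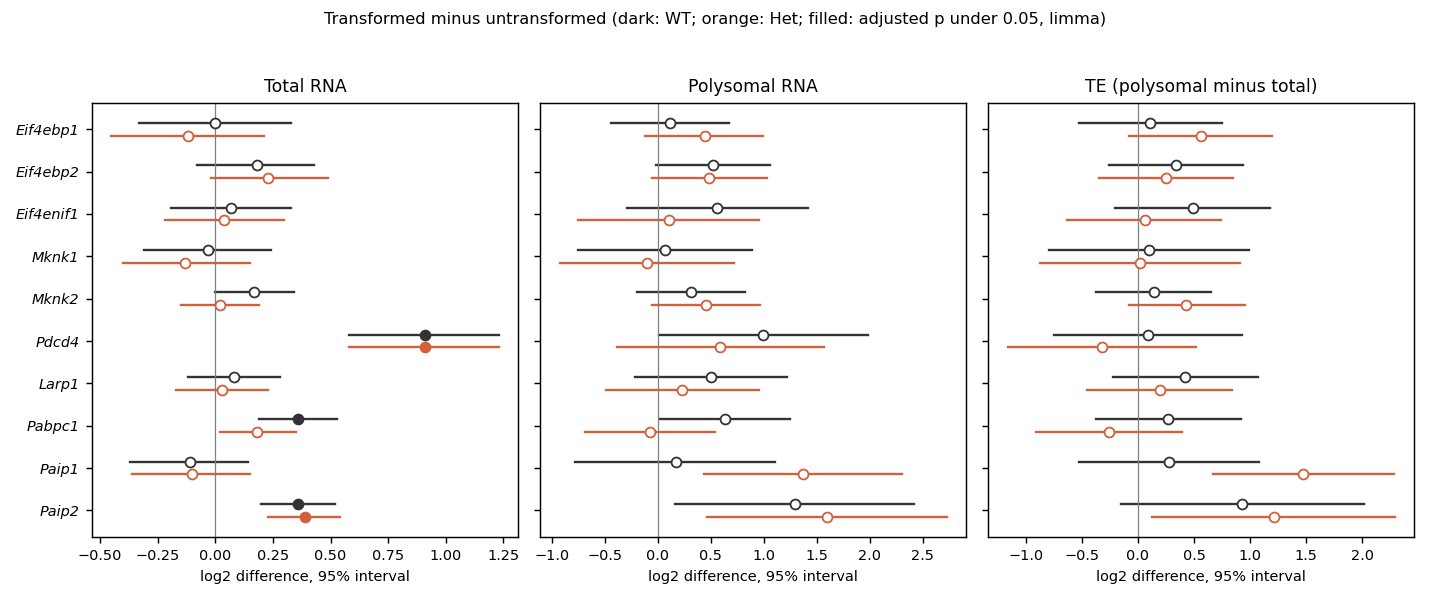
Transformed minus untransformed, as a log2 difference with its 95% interval on the horizontal axis, for total RNA, polysomal RNA and TE of the 10 genes in WT (dark) and Het (orange) cultures, 3 embryos each. Filled points have an adjusted p under 0.05: these are Pdcd4, Pabpc1 and Paip2 in WT and Pdcd4 and Paip2 in Het total RNA, and no point is filled for polysomal RNA or TE, where intervals are wider.

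Over the 10 genes, transformed and untransformed groups did not overlap for 4 in WT total RNA (Mknk2, Pdcd4, Pabpc1 and Paip2), where 37% of all genes did not overlap. In Het total RNA they did not overlap for 4 (Eif4ebp2, Pdcd4, Pabpc1 and Paip2), where the share over all genes was 37.3%.

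Lower Eif4e dose was not accompanied by a called change in total RNA of these genes. Among untransformed cultures the Het minus WT differences ran from -0.24 (Pdcd4) to 0.12 with a median of 0.05, beside -0.01 over all genes. Among transformed cultures they ran from -0.24 (Pdcd4) to 0.14 (Paip1) with a median of -0.07, beside 0.01 over all genes. With limma 0 of the 10 genes were called in either state, and 0 were called with trend and robust eBayes or with array weights. An unadjusted p under 0.05 (limma) was found for 0 of the 10 genes, and for 352 and 1379 of all 14830. Eif4e itself was not called by this test, at -0.30 in untransformed and -0.57 in transformed cultures (adjusted p = 0.2 in the latter, limma). The lack of calls therefore does not show that the 10 genes were unchanged. Over all genes 0% were called in untransformed and 0.0472% in transformed cultures. Groups that did not overlap were seen for Pabpc1 and Paip2 in untransformed cultures (10.9% of all genes) and for Mknk2 and Pabpc1 in transformed cultures (10.2%).

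The widest genotype intervals in total RNA were those of Pdcd4, whose difference was -0.24 in both states (95% interval -0.63 to 0.14 in each). Paip2 was lower in Het cultures by a similar amount in both states, at -0.15 (-0.30 to 0.01) and -0.12 (-0.28 to 0.03). Pabpc1 was higher in each untransformed Het culture than in each WT culture, by 0.05 on average, and lower in each transformed Het culture than in each WT culture (the closest pair both round to 12.53), by 0.12 on average.

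**Figure D3:**
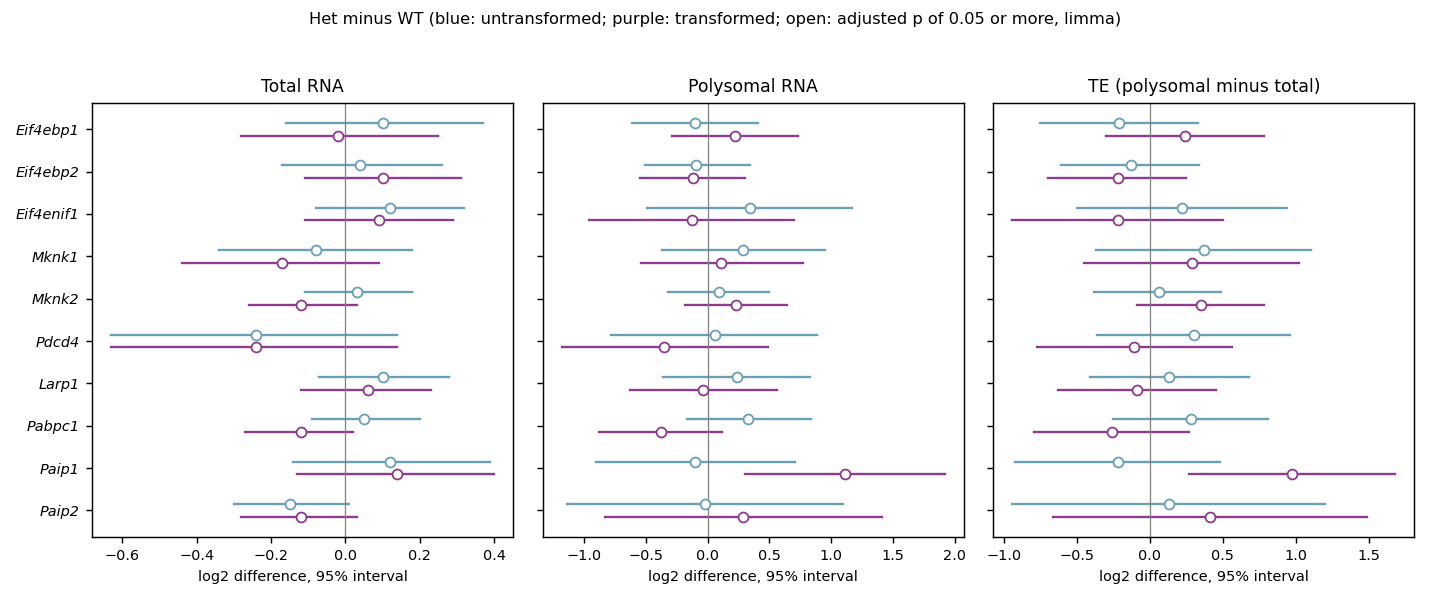
Het minus WT, as a log2 difference with its 95% interval on the horizontal axis, for total RNA, polysomal RNA and TE of the 10 genes among untransformed (blue) and transformed (purple) cultures, 3 against 3. All points are open, as no adjusted p was under 0.05, and the interval of Paip1 among transformed cultures lies above 0 in polysomal RNA and TE.

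On heavy polysomes no gene of the 10 was called, in either genotype. In WT cultures 10 of 10 polysomal differences were above 0, with a median of 0.51 beside 0.02 over all genes. In Het cultures 8 of 10 were above 0, with a median of 0.44 beside 0.01. With limma 0 were called in each, where 1.28% and 1.79% of all genes were called. An unadjusted p under 0.05 (limma) was found for 3 in WT (Pdcd4, Pabpc1 and Paip2) and 2 in Het cultures (Paip1 and Paip2). Of all 14830 genes, 2046 in WT and 2213 in Het cultures had such a p. Polysomal groups did not overlap for 1 gene in WT (Eif4ebp2, with 15.9% over all genes) and for 4 in Het cultures (Eif4ebp1, Mknk2, Paip1 and Paip2, with 25.5%). Between genotypes they did not overlap for 0 of the 10 genes among untransformed cultures (5.74% of all genes).

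The weak arrays bear on these values. WT untransformed 1 held the lowest polysomal value among 6 untransformed cultures for 5 of the 10 genes, and WT transformed 3 the lowest among 6 transformed cultures for 5. In embryo WT1 the transformed polysomal value was the higher one for 10 of 10 genes, and in WT3 the lower one for 7 of 10. In total RNA of the same embryos 6 and 7 of 10 were higher. Without the 2 weak arrays, in an alternative added after seeing the data with 2 residual degrees of freedom, 2 genes were called higher on Het polysomes, Paip1 (1.37, adjusted p = 0.00587, limma) and Paip2 (1.60, adjusted p = 0.00298, limma), and 0 in WT, while the genes called over the whole table went from 266 to 1449 in Het and from 190 to 403 in WT. The Het differences of both genes do not use the arrays left out; what changed is the estimate of the spread, which all groups share. The WT differences then rest on embryo WT2 alone, the one with both polysomal arrays left. They moved most for Eif4ebp1 (0.11 to -0.53), Mknk2 (0.31 to -0.12), Eif4enif1 (0.56 to 1.07), Larp1 (0.50 to 1.09), Pabpc1 (0.63 to 1.06) and Paip1 (0.17 to 1.12), and were not called. Among untransformed cultures the Het minus WT difference of Paip2 went from -0.02 to -0.79 (adjusted p = 1, limma).

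**Figure D4:**
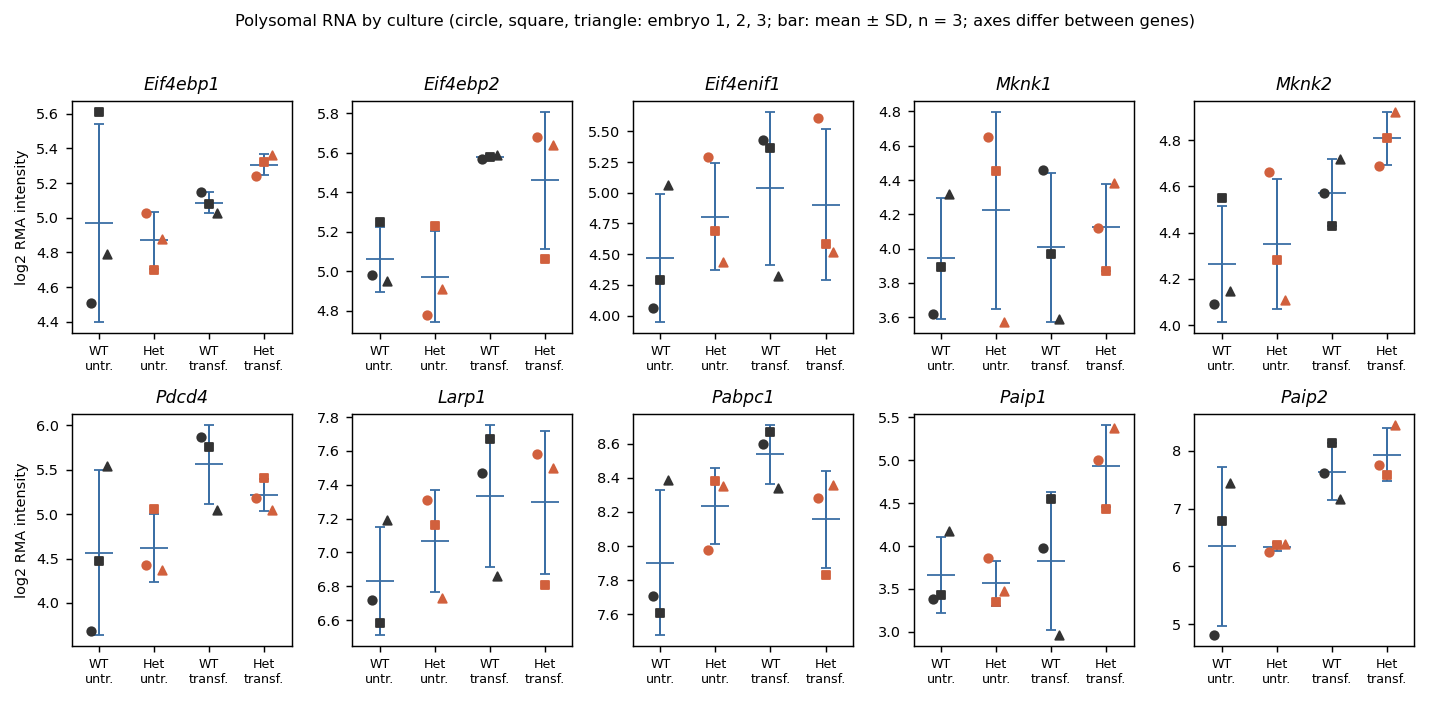
Polysomal RNA of the 10 genes in each culture, as log2 RMA intensity on the vertical axis with its own range per gene; circle, square and triangle are embryos 1, 2 and 3 of WT (dark) and Het (orange), and bars give the mean and SD of 3 cultures. Het transformed cultures of Paip1 lie at 4.43 to 5.38 and those of Paip2 at 7.58 to 8.45, above the untransformed Het cultures, and WT cultures scatter more.

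The Paip1 polysomal mean was highest in transformed Het cells, while its total RNA values overlapped, and the difference did not pass the test. Its polysomal values were 3.38, 3.43 and 4.17 in untransformed WT, 3.98, 4.55 and 2.96 in transformed WT and 3.86, 3.35 and 3.48 in untransformed Het cultures. In transformed Het cultures they were 5.0, 4.43 and 5.38. Only WT transformed 2 reached into the range of this last group, and the other groups spanned 2.96 to 4.55, beside medians of 3.40 to 3.52 over all genes of the polysomal arrays. The Het embryos differed by 1.13, 1.08 and 1.90 between states and the WT embryos by 0.59, 1.12 and -1.21. The Het polysomal difference was 1.37 ± 0.41 (SE) and did not pass (adjusted p = 0.152, limma), and that in TE was 1.47 ± 0.35 (adjusted p = 0.162, limma). The polysomal call was made with array weights (1.33, adjusted p = 0.0146, limma) and without embryo WT3 (1.37, adjusted p = 0.00434, limma). The TE call was made with array weights (1.43, adjusted p = 0.0118, limma) and without the embryo block (1.47, adjusted p = 0.0492, limma). It was also made without the weak arrays (1.47, adjusted p = 0.00223, limma) and without embryo WT3 (1.47, adjusted p = 0.00205, limma). Both of these settings leave out WT transformed 3 and no Het array. The Het difference is then unchanged, so these calls are not independent of each other. Apart from the polysomal call without the weak arrays, the other alternatives gave no call in these 2 Het differences. There was none without Het embryo 1, 2 or 3, which carry these differences. Without any of these embryos 0 genes of the whole table were called in Het TE.

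Between genotypes, transformed Het cultures exceeded transformed WT cultures by 1.11 ± 0.37 (SE) in Paip1 polysomal RNA (adjusted p = 1, limma) and by 0.97 ± 0.33 in TE (adjusted p = 1, limma). The unadjusted values were 0.0111 and 0.0103 (limma), the only ones under 0.05 among the 10 genes in these comparisons, where 478 and 430 of 14830 genes had one and 0% were called. Without embryo WT3 the differences were 0.67 and 0.62. The difference in transformation effect between genotypes was 1.20 (95% interval -0.13 to 2.54) in polysomal RNA and 1.19 (0.06 to 2.33) in TE, with an adjusted p of 1 for each (limma), 0.51 and 0.59 without embryo WT3, and 0.25 and 0.56 without the weak arrays, where the WT polysomal difference is 1.12.

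Paip2 had higher polysomal means in transformed cells of both genotypes, without a call. Its values were 4.81, 6.79 and 7.45 in untransformed and 7.61, 8.14 and 7.16 in transformed WT cultures. In Het cultures they were 6.25, 6.37 and 6.38 against 7.76, 7.58 and 8.45. The Het groups stand clear of each other, and the WT groups overlap because the embryos differed by 2.80, 1.35 and -0.29. The mean differences were 1.29 ± 0.49 (SE) in WT (adjusted p = 0.292, limma) and 1.60 ± 0.49 in Het cultures (adjusted p = 0.162, limma). The WT value was 0.53 without embryo WT1 and 2.08 without embryo WT3 (adjusted p = 0.00531, limma). In TE the differences were 0.93 (95% interval -0.15 to 2.01) and 1.21 (0.13 to 2.29), and neither passed (adjusted p = 0.589 and 0.418, limma). Without embryo WT3 the TE differences were 1.74 (adjusted p = 0.00741, limma) and 1.21 (adjusted p = 0.023, limma), both calls. Without embryo WT1 the WT one was 0.18, and without the weak arrays they were 1.05 (adjusted p = 0.336, limma) and 1.21 (adjusted p = 0.00726, limma).

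Pdcd4 and Pabpc1 followed their total RNA on WT polysomes less evenly. Pdcd4 was 3.69, 4.47 and 5.54 in untransformed and 5.87, 5.76 and 5.05 in transformed WT cultures, a difference of 0.99 (95% interval 0.01 to 1.98, adjusted p = 0.358, limma). In Het cultures it was 4.43, 5.06 and 4.37 against 5.18, 5.41 and 5.05, a difference of 0.59 (-0.39 to 1.57). Without embryo WT3 the WT difference was 1.73 (adjusted p = 0.00369, limma) and without WT1 it was 0.40. Its TE differences were 0.09 (-0.75 to 0.93) in WT and -0.32 (-1.16 to 0.52) in Het cultures. The WT embryos differed in TE by 0.84, 0.69 and -1.27, and the WT difference was 0.77 without embryo WT3 and -0.29 without WT1 (adjusted p = 0.08 and 0.954, limma). Pabpc1 was 7.71, 7.61 and 8.39 in untransformed and 8.60, 8.67 and 8.34 in transformed WT cultures, and 7.98, 8.38 and 8.35 against 8.28, 7.83 and 8.36 in Het cultures. The Pabpc1 differences were 0.63 (0.02 to 1.25) and -0.08 (-0.69 to 0.54), and the difference between them was -0.71 (-1.58 to 0.15, adjusted p = 1, limma). Without embryo WT3 the WT difference was 0.98 and called (adjusted p = 0.0307, limma), and it was 0.42 without WT2. Without embryo Het2 the Het difference was 0.16. Without the weak arrays the difference between genotypes was -1.14 (adjusted p = 0.351, limma).

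The 4E-binding proteins and 4E-T were not called on polysomes. Eif4ebp2 was 4.98, 5.25 and 4.95 in untransformed and 5.57, 5.58 and 5.59 in transformed WT cultures, groups that do not overlap. In Het cultures it was 4.78, 5.23 and 4.91 against 5.68, 5.06 and 5.64, which overlap. The differences, 0.52 and 0.48, were alike and did not pass (adjusted p = 0.386 and 0.403, limma). Eif4ebp1 was 4.51, 5.61 and 4.79 in untransformed and 5.15, 5.08 and 5.03 in transformed WT cultures, and 5.03, 4.70 and 4.88 against 5.24, 5.32 and 5.36 in Het cultures. Here the Het groups do not overlap, and the differences were 0.11 and 0.44 (adjusted p = 0.917 and 0.474, limma). Among transformed cultures each Het value of Eif4ebp1 was above each WT value, by 0.22 on average (adjusted p = 1, limma), with 8.51% of all genes not overlapping in this comparison. Eif4enif1 ranged from 4.06 to 5.06 in untransformed WT, 4.32 to 5.43 in transformed WT, 4.44 to 5.29 in untransformed Het and 4.52 to 5.61 in transformed Het cultures, and these ranges overlap. Its WT embryos differed by 1.37, 1.07 and -0.74, a mean of 0.56 (95% interval -0.29 to 1.42), against 0.10 (-0.76 to 0.95) in Het cultures. Without embryo WT3 the WT difference was 1.22 and called (adjusted p = 0.00799, limma). The other Eif4enif1 probe set, with all embryos, did not show this rise. It gave 0.09 in WT and 0.10 in Het cultures (adjusted p = 0.933 and 0.921, limma).

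Among the kinases, Mknk2 was 4.09, 4.55 and 4.15 in untransformed and 4.57, 4.43 and 4.72 in transformed WT cultures. In Het cultures it was 4.66, 4.28 and 4.11 against 4.69, 4.81 and 4.92, which do not overlap. The differences of 0.31 and 0.45 did not pass (adjusted p = 0.637 and 0.411, limma). Mknk1 ranged over 3.57 to 4.65 in the 12 cultures, with differences of 0.07 and -0.10. Larp1 was 6.72, 6.58 and 7.19 in untransformed and 7.47, 7.67 and 6.86 in transformed WT cultures, and 7.31, 7.16 and 6.73 against 7.58, 6.81 and 7.50 in Het cultures. The groups overlap, with differences of 0.50 (95% interval -0.22 to 1.22) and 0.23 (-0.49 to 0.95). The other Larp1 probe set gave 1.14 and 0.44 (adjusted p = 0.156 and 0.647, limma).

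In TE no gene of the 10 was called in any comparison (limma), where 0.701% of all genes were called for transformation in WT and 0.297% in Het cultures. The median TE difference over the 10 genes was 0.28 in WT and 0.22 in Het cultures, beside 0.03 and -0.01 over all genes. Unadjusted p-values under 0.05 (limma) were found for 0 of the 10 genes in WT and for 2 in Het cultures, Paip1 and Paip2. Of all 14830 genes, 1487 and 1524 had such a p. TE groups of the states did not overlap for 0 genes in WT (14.5% of all genes) and for 5 in Het cultures (19.9%), namely Eif4ebp1, Mknk2, Pdcd4, Paip1 and Paip2. Between genotypes they did not overlap for 0 genes in untransformed cultures (5.58%) and for 1, Mknk2, in transformed cultures (8.3%). Its TE was -3.18, -3.24 and -2.95 in WT and -2.84, -2.84 and -2.63 in Het cultures, a difference of 0.35 (95% interval -0.09 to 0.78, adjusted p = 1, limma). The difference in transformation effect between genotypes was called for 0 of the 10 genes, and for 0% of all genes, in total RNA, polysomal RNA and TE. An unadjusted p under 0.05 (limma) was found for 1 member, Paip1 in TE, where 289 of 14830 genes had one.

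The position of each gene on polysomes was followed across cultures. Polysomal arrays have a narrower range of values (SD 1.15 to 1.44) than total RNA arrays (1.71 to 1.81), so TE depends on the total value. Each polysomal value was therefore ranked among all genes whose total value in the same culture lay within 0.25, a comparison added after seeing the data. Probe response differs between probe sets, so the percentile is read for a gene across cultures and gives no order of genes. On Larp1, for example, TE was -4.28 to -3.33 on the main probe set and -6.12 to -4.17 on the other. Mknk2 lay at percentiles 76.9 to 97.1 over the 12 cultures, Larp1 at 66.8 to 85.1 and Eif4ebp2 at 52.8 to 87.1. Eif4ebp1 (42.6 to 79), Pdcd4 (28.3 to 71.4) and Mknk1 (21.4 to 71.9) had wide ranges. Pabpc1 lay at 26.3 to 51.9, and Eif4enif1 at 22.6 to 54. For Pabpc1 the rank was among only 30 to 124 genes of like total value, against 260 or more for the other members. As background, Pabpc1 mRNA is known for repression through its own poly(A)-binding protein and for mTORC1-dependent translation. The part of either in its position was not tested.

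Paip1 lay at percentiles 2.06 to 8.53 in 9 cultures. In the 3 transformed Het cultures it lay at 22.6, 23.5 and 45. Paip2 was at 48 to 53.6 in untransformed and 71.5 to 86.1 in transformed Het cultures, and at 23.5 to 68.3 and 60.8 to 76.9 in WT cultures. Transformed Het cultures thus hold the highest 3 values of Paip1 and, for Paip2, 1 WT culture, at 76.9, lies within their range. These percentiles are a description and were not tested.

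**Figure D5:**
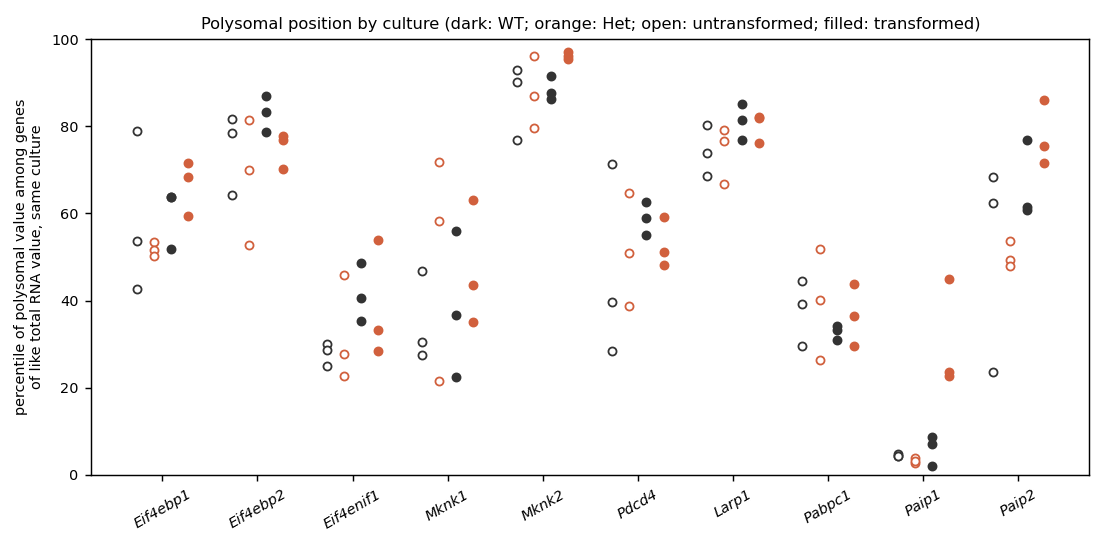
Percentile of each gene's polysomal value among genes of like total value in the same culture (vertical axis, 0 to 100), with a point for each of the 12 cultures, WT dark and Het orange, untransformed open and transformed filled. Mknk2 stays above 76 throughout, and Paip1 stays below 9 except in the 3 transformed Het cultures, at 22.6 to 45.

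The upstream and partner genes were counted from lists of the pathways. Of 11 listed eIF4F subunits, paralogs and cofactors 9 were tested in total RNA, where 16.7% of all genes were called in WT and 14.3% in Het cultures. Transformation called Eif4e higher in WT (0.53, adjusted p = 0.0204, limma) and Eif4e3, an eIF4E paralog, lower in Het cultures (-0.64, adjusted p = 0.0451, limma). The Het difference of Eif4e was 0.25 and did not pass (adjusted p = 0.165, limma). Its transformation effect differed between genotypes by -0.27, which did not pass either (adjusted p = 0.916, limma). The medians over the 9 genes were 0.11 and 0.02. Of 23 genes of the mTORC1 and S6 kinase axis 19 were tested. In WT cultures 2 were called higher and 1 lower: Rptor, the substrate-binding subunit of mTORC1 (0.48), Rhebl1, a relative of its activator (0.69), and Rheb, the activator itself (-0.36). In Het cultures Ddit4, a stress-induced inhibitor of the pathway (0.52), and Rhebl1 (0.58) were higher, and Pdpk1 (-0.30) and Rheb (-0.31) lower. The 3 and 4 calls of 19 stand beside 16.7% and 14.3% of all genes, and the medians over the 19 genes were 0.01 and 0.03.

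Of 18 genes of the ERK and p38 routes that activate the MNK kinases 15 were tested, and 2 rose and 3 fell in total RNA of each genotype (16.7% of all genes called in WT, 14.3% in Het). Map2k6, a kinase of p38, rose by 1.65 in WT and 1.28 in Het cultures, and Dusp6, an ERK phosphatase induced by ERK signalling, by 0.71 and 0.79. Map2k1, an ERK kinase, fell by 0.39 and 0.43, the phosphatase Dusp1 by 1.47 and 1.32, and Mapk14, the main p38 kinase, by 0.29 and 0.36. Each passed the test (limma). The TE of Map2k6 fell by 1.54 in WT cultures (adjusted p = 0.0241, limma), the single call in TE among the lists. The medians over the 15 genes were 0.00 and 0.01 in total RNA.

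Among other eIF4E partners and P-body genes 16 of 18 were tested, and the decapping enzyme Dcp2 (0.47) and Gigyf2, which joins the eIF4E paralog 4EHP in repression (0.26), rose in WT and 0 in Het cultures, with medians of 0.11 and 0.07 over the list and 16.7% and 14.3% of all genes called. Among other poly(A)-binding proteins and tail partners 19 of 23 were tested. Tob1, which recruits the deadenylase complex to the poly(A)-binding protein, rose by 1.01 in WT and 1.06 in Het total RNA (adjusted p = 0.00378 and 0.00432, limma), and by 1.40 on WT polysomes (adjusted p = 0.0472, limma). Larp1b, a relative of Larp1, fell by 0.67 and 0.42, and Pabpc4l fell by 1.27 in Het cultures (adjusted p = 0.0458, limma). The 2 and 3 calls of 19 in total RNA stand beside the same 16.7% and 14.3%, and the medians over these 19 genes were 0.11 and 0.05. In these 5 lists 0 genes were called by genotype in total RNA, polysomal RNA or TE. The difference in transformation effect between genotypes was also called for 0 genes. A call in only 1 genotype is therefore not shown to be particular to it.

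Total RNA patterns were compared over the 12 total RNA arrays by Pearson correlation, which includes the difference between the states and is given as a description. The 3 genes most like Pdcd4 were Cd80 (0.968), Paip2 (0.964) and Pcmtd2 (0.959), so that a member of the set stands among its nearest patterns out of all genes tested. Those most like Paip2 were Mitd1 (0.967), Pdcd4 (0.964) and Washc3 (0.959), and those most like Pabpc1 were Glul (0.981), Cep70 (0.973) and Rab11fip1 (0.971). Eif4ebp2 was most like Mrpl19 and Nedd1 (0.959 each) and Odc1 (0.941), and Eif4ebp1 most like Iars (0.856), Eif1b and Vldlr (0.848 each). Mknk1 was most like Zfp949 (0.953), Slc25a20 (0.936) and Insig2 (0.934), and Mknk2 most like Sugp1 (0.914), Zfp869 (0.907) and Tsnax (0.895). Eif4enif1 was most like Sltm (0.954), Morc2a (0.947) and Gpn1 (0.928), Larp1 most like Tyms and Hcfc1 (0.959 each) and Smc3 (0.952), and Paip1 most like H2ac4 (0.93), Ska1 (0.929) and Drg1 (0.882).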

How the data were processed

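The authors deposited log2 RMA intensities of 24 arrays, per the series description and the submitters' processing notes; the RMA version, chip definition and probe set filter are not given in the sources used here. Of 25668 probe sets, 20777 carried 1 gene symbol in the platform annotation, 232 several and 4659 none; the last 2 classes were not used. Where a gene had several probe sets (564 genes), the brightest over all arrays was taken. A gene stayed in (14830 did) if 3 or more of the 24 arrays, of either fraction, had it over their own percentile 40.

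Differences were tested with limma 3.58.1 (lmFit, eBayes) in R 4.3.3, separately for total RNA, polysomal RNA and TE, with Benjamini-Hochberg adjustment over all 14830 genes and a threshold of 0.05. Genotype effects came from 4 group means (8 residual degrees of freedom). Transformation effects and their difference between genotypes had embryo as a block (leaving 4), since both states come from the same embryo per the labels; deviations of an embryo's states correlated at -0.058 to 0.219 for total RNA arrays and at -0.438 to 0.062 for polysomal arrays. Sample titles number the Het cultures of a group separately but give all of them the same biological replicate number, unlike the WT cultures. The Het embryos were told apart by the former number. With 3 embryos per group, their number limits the precision. The fits were also run on simulated independent normal values with a change added to WT transformed cultures only. That simulation held no embryo effects and no weak arrays. It therefore does not test the embryo block or the genotype comparisons under the conditions of these data.

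The genes described and the pathway lists were chosen with earlier results of these data known. All 10 genes are named in each comparison; from a list, at most the 4 called genes with the smallest p; for likeness, the 3 highest correlations. Mapk14 and Dusp1 exceed that number in 1 genotype each. Alternatives were no filter, the mean of all probe sets, other probe sets, quantile normalization within a fraction, centring on array medians, trend and robust eBayes, array weights, other blocking, only the 2 groups compared, each embryo left out, and the weak arrays left out.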

Additional observations from a re-analysis of the deposited data

Results flagged for a closer look

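Pabpc1 in total RNA stood on opposite sides of the WT cultures in the 2 states. Untransformed Het cultures (12.33, 12.30 and 12.29) were all above WT cultures (12.23, 12.25 and 12.28), and transformed Het cultures (12.43, 12.53 and 12.51) were all below WT cultures (12.53, 12.59 and 12.71), of which the closest pair differ only beyond the second decimal. Groups also did not overlap for 10.9% of all genes in untransformed and 10.2% in transformed cultures. The Het minus WT difference was 0.05 in untransformed cultures (unadjusted p = 0.425, limma). In transformed cultures it was -0.12 (unadjusted p = 0.0942, limma), and neither was called. The Het minus WT difference moved by -0.17 from the untransformed to the transformed state. Pabpc1 was flagged because of this difference between states. In limma, the difference between genotypes in the transformation effect was -0.18 and did not pass (adjusted p = 0.916), and over its alternatives it was -0.20 to -0.13.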

How the results depend on the processing

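Of 2140 values of the 10 genes under alternatives, 2012 kept their direction or size and side of the threshold, 8 lost a call, 18 gained a call, 102 moved by more than the spread and 0 called values changed sign, while 140 values that were not called did. The transformation counts changed as follows. In Het polysomal RNA 0 calls became 2 with array weights, 2 without the 2 weak arrays and 0 to 2 leaving out single embryos; in Het TE 0 became 1 with array weights, 1 without the embryo block (no replicate block), 2 without the weak arrays and 0 to 2 leaving out single embryos. Leaving out single embryos gave 0 to 2 calls in Het total RNA (main 2), 1 to 3 in WT total RNA (main 3), 0 to 4 in WT polysomal RNA and 0 to 2 in WT TE (main 0 each). The WT polysomal calls without embryo WT3 were Eif4enif1, Pabpc1, Paip2 and Pdcd4. With same-numbered WT and Het embryos as a replicate block, which share only a number (correlations of deviations -0.326 to 0.484), 0 of the 10 genes were called by genotype, as without it.

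Over all genes, calls for transformation ranged from 0 to 1321 in Het polysomal RNA (main 266) and from 0 to 540 in Het TE (main 44) leaving out single embryos, and reached 1449 and 688 under other settings. In WT they ranged from 21 to 1735 in polysomal RNA (main 190) and from 14 to 881 in TE (main 104), and reached 558 and 513 under other settings. In total RNA they reached 3255 in Het with array weights (main 2115). The 7 genes called by genotype in transformed total RNA became 0 to 51. The cause of these shifts was not tested; leaving out an embryo also leaves fewer residual degrees of freedom.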
